A study of Mus musculus with 72 samples.

Results

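The comparison described here is postnatal morphine against saline in male pups at postnatal day 14 (PND14). Its members were the libraries whose title carries PND14 and the code M, which gave 6 male morphine and 6 male saline libraries, 12 of the 72 libraries in the series. The study profiled brain RNA of C57Bl/6 mouse pups (C57Bl/6NTac in its methods) after exposure to morphine, an opioid agonist, before birth, after birth or throughout both periods. Pups of this comparison had no drug before birth and received 10 mg/kg morphine, or saline, 2 times a day, starting late on postnatal day 1. Brain was taken at day 14, 6 h after the last injection, although the submitters' design text gives day 15. The study's methods name the right hemisphere as the tissue and the design text the cortex. The label holds no genetic change in either group, and no source used here gives the litter of a pup. Each sample ID opens with a number, 4422 or 4423 for morphine and 4424 or 4425 for saline, each shared by 3 male and 3 female pups, and the labels do not say whether it stands for a litter. A p-value here thus rests on pup-to-pup spread, and siblings may be among the pups.

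Raw counts per gene were deposited. The male morphine libraries held 8223937 to 21404819 counts (median 16191124.5) and the male saline libraries 11224832 to 16379468 (median 14641616). The X-inactivation RNA *Xist* lay at 0 to 0.155 CPM (counts scaled to library size, here TMM-normalized) and the Y-linked *Ddx3y* at 51.1 to 62.6 CPM in all 12, as the male label says. Markers of cortical projection neurons (12 of 12) and of striatum (11 of 11 in the table) passed the filter on low counts, whereas 1 of 17 hindbrain and spinal cord genes did. Cerebellum markers summed to 138 to 182 CPM with morphine and 133 to 232 CPM with saline.

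Oligodendrocytes wrap axons in myelin, a stack of membrane rich in glycolipids and a small set of structural proteins. In the mouse forebrain they arise around birth and make most of their myelin over the weeks after it, so their genes climb steeply at the age sampled here. Over the same weeks young neurons turn down the tubulins and collapsin response mediators that their growth cones use. Morphine acts on the mu opioid receptor, and opioid receptors have been described on neurons and on glia.

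In these libraries, morphine-treated males had lower RNA of myelin and oligodendrocyte genes such as *Mag*, *Mobp*, *Fa2h* and *Myrf*. They had higher RNA of *Rac3*, *Tubb2b*, *Dpysl3* and 13 other genes. With edgeR's quasi-likelihood F test, 55 of 19636 genes were differentially expressed (DEGs) at an adjusted p under 0.05, which is 0.28% of those tested. Of these, 39 were lower (0.199%) and 16 were higher (0.0815%) in morphine. The DEGs moved by 0.16 to 0.75 on the log2 scale, and 98.3% of all genes stayed within 0.5 of no change. In 35 of the 55 DEGs the 6 morphine and 6 saline values did not overlap, against 1.14% of all genes tested. The DEGs were chosen by these same values, so a larger share among them was bound to arise. At an unadjusted p under 0.05, 1825 genes (9.29%) differed. The protein-coding genes were 35 of the 39 lower DEGs and 15 of the 16 higher DEGs.

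The number of DEGs rested on single libraries. Without male morphine replicate 2 there were 0 DEGs in edgeR (1574 genes at an unadjusted p under 0.05), without replicate 9 there were 6, without replicate 3 there were 19, and without replicate 1 there were 120. Without male saline replicates 1, 7, 8 or 9 there were 16, 10, 13 or 14. The count moved less without morphine replicates 7 or 8 (42 or 60) and without saline replicates 2 or 3 (53 or 51). Without all pups of ID number 4422 there were 54 and without those of 4423 there were 7. Without 4424 or 4425 there were 0, although 1520 and 960 genes had an unadjusted p under 0.05. DESeq2 on the same libraries gave 196 DEGs, 77 higher and 119 lower, which held all 55. None of the 55 changed sign in any of the 26 alternatives tried. The 55 were chosen by their difference in these same libraries, so a change of sign was unlikely from the start. Single DEGs were called in 7 (*Specc1*) to 23 (*Gsn* and *Myrf*) of the 26 alternatives.

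**Figure D1:**
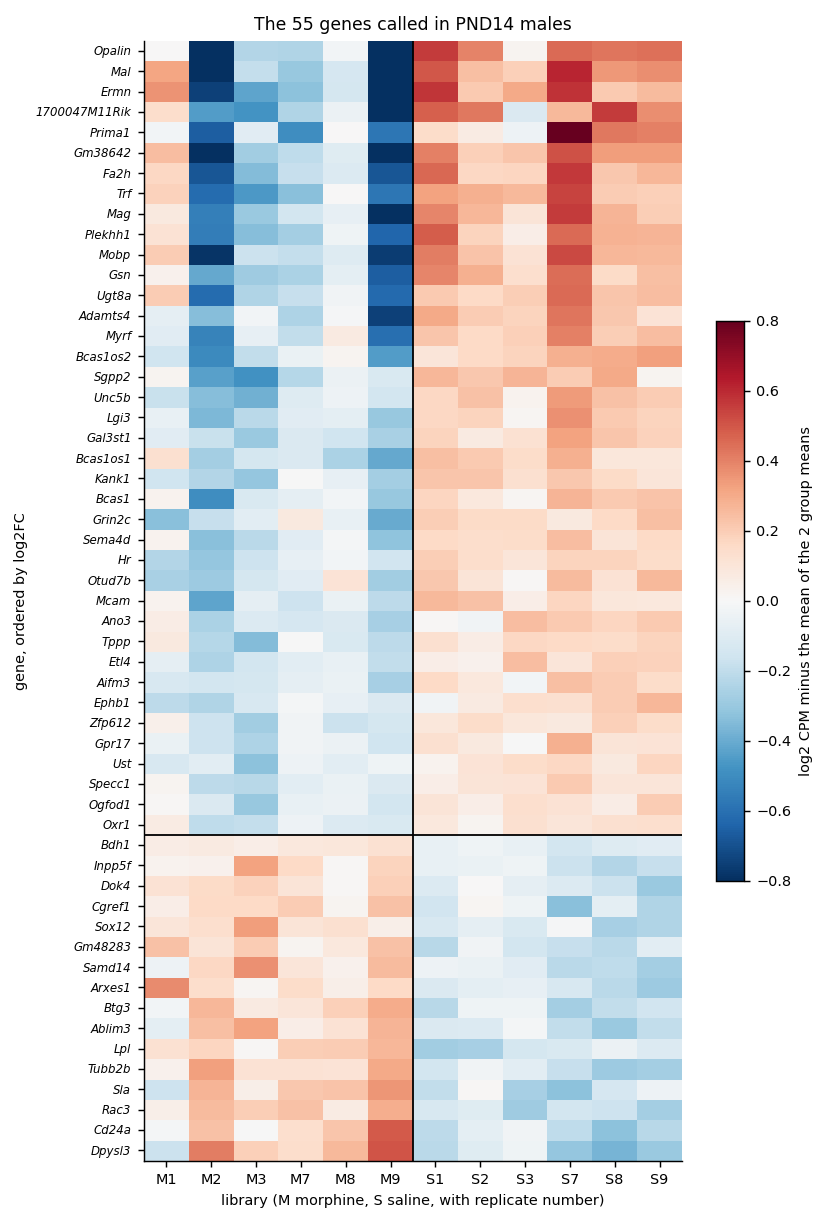
Each row is 1 of the 55 DEGs, ordered by log2FC, and each column 1 of the 12 PND14 male libraries (M morphine, S saline, with the replicate number). Colour gives log2 CPM minus the mean of both group means and saturates at 0.8 either way. Among the 39 lower genes above the line, morphine replicates 2 and 9 are the deepest blue and replicate 1 the palest.

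Of the gene lists examined, that of myelin sheath proteins held the largest number of lower DEGs. It also takes in proteins made by the myelinating cell such as gelsolin and transferrin. Like the other lists, it was chosen with earlier results of these data known, so its counts are a description. Of 23 tested, 7 were lower DEGs and 0 were higher, and 22 had a log2FC below 0, where 48.7% of all genes did. Their median log2FC was -0.40, beside 0.004 over all genes. At an unadjusted p under 0.05, 18 of the 23 were lower, where 5.03% of all genes were. Depending on the library or ID number left out, 0 to 13 of the 23 were lower DEGs, and DESeq2 called 11. In bulk tissue, fewer oligodendrocytes and less RNA per oligodendrocyte cannot be told apart.

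*Gsn* (chr2:35256380-35307892, plus strand, mm10) encodes gelsolin, an actin-severing protein that oligodendrocytes express strongly. It lay at 55.2 to 89.1 CPM (median 72.4) in morphine and at 95.5 to 118.8 CPM (median 104.6) in saline. The groups did not overlap, and the log2FC was -0.54 ± 0.088 (SE, n = 6 and 6, edgeR adjusted p = 0.0103). It was a DEG in 23 of the 26 alternatives.

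*Mag* (chr7:30899176-30914873, minus strand), the myelin-associated glycoprotein of the membrane next to the axon, ran from 97.9 to 182.5 CPM (median 148) in morphine and from 185.7 to 254.4 CPM (median 208.3) in saline. The highest morphine pup was just below the lowest saline pup. Its log2FC was -0.58 ± 0.11 (SE, edgeR adjusted p = 0.0191). The study's own quantitative PCR found *Mag* RNA unchanged in PND14 males given morphine and lower in PND14 females.

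*Mobp* (chr9:120149707-120181484, plus strand), a basic protein of compact myelin, had 182.8 to 362.7 CPM (median 277.9) in morphine and 342.2 to 454.1 CPM (median 378.6) in saline. Here the groups overlapped by 1 morphine pup, replicate 1. Its log2FC was -0.57 ± 0.13 (SE, edgeR adjusted p = 0.0486), close to the threshold. *Mobp* was a DEG in 12 of the 26 alternatives. *Gm38642*, an unnamed transcript on the same strand that overlaps the end of *Mobp*, fell with it (log2FC -0.62), and reads in the overlap cannot be assigned to 1 of them.

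*Opalin*, a glycoprotein of the oligodendrocyte surface, showed the lowest log2FC of the 55, at -0.75 ± 0.16 (SE, edgeR adjusted p = 0.0366). It had 3.49 to 6.82 CPM (median 5.76) in morphine and 6.90 to 10.0 CPM (median 9.17) in saline, so the groups met without overlapping. *Mal*, a membrane protein of myelin vesicle transport, ran from 30.5 to 82.5 CPM (median 55.9) against 75.6 to 101.3 CPM (median 85.1), with a log2FC of -0.71. *Ermn*, a cytoskeletal protein of late oligodendrocytes, ran from 7.97 to 18.4 CPM (median 11.04) against 16.5 to 21.3 CPM (median 17.3), with a log2FC of -0.69. In both genes morphine replicate 1 reached the saline range and the other 5 morphine pups lay below it. *Opalin* and *Mal* were each DEGs in 14 of the 26 alternatives, and *Ermn* in 16. *Trf*, the iron carrier transferrin, ran from 42.4 to 73.6 CPM (median 49.3) against 74.1 to 94.4 CPM (median 78.3), with no overlap and a log2FC of -0.58.

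The abundant myelin genes leaned the same way without passing the test over all genes. *Mbp*, myelin basic protein, had 1166 to 2019 CPM (median 1615) in morphine and 1830 to 2463 CPM (median 2007) in saline, a log2FC of -0.40 ± 0.11 (SE, edgeR adjusted p = 0.12). *Mog* and *Cnp*, a surface antigen and an enzyme of myelin, had log2FC of -0.56 and -0.33 with adjusted p of 0.0981 and 0.0953. The member with a log2FC above 0 was *Pmp22* (0.02), known mainly from peripheral myelin.

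Of 9 enzymes of myelin lipids tested, 3 were lower DEGs, 0 were higher, and all 9 had a log2FC below 0 (median -0.28). At an unadjusted p under 0.05, 7 of the 9 were lower. Over all genes, 0.199% were lower DEGs, 48.7% had a log2FC below 0 and 5.03% were lower at an unadjusted p under 0.05. Leaving out a library or ID number left 0 to 3 of the 9 enzymes as DEGs. *Fa2h*, which hydroxylates the fatty acids of myelin galactolipids, lay at 20.9 to 37.8 CPM (median 28.1) in morphine and 37.8 to 49.9 CPM (median 39.8) in saline. The highest morphine and lowest saline values were almost equal, and the log2FC was -0.60 ± 0.11 (SE, edgeR adjusted p = 0.0134). *Ugt8a*, which makes galactosylceramide, had a log2FC of -0.47 and *Gal3st1*, which sulfates it to sulfatide, one of -0.37. Of 21 genes of cholesterol synthesis, which also feeds the myelin membrane, 0 were DEGs in either edgeR or DESeq2, and the median log2FC was 0.07. At an unadjusted p under 0.05, 5 were higher and 1 lower, where 4.26% and 5.03% of all genes were.

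Among 11 transcription factors of the lineage, 1 was a lower DEG and 0 were higher, where 0.199% and 0.0815% of all genes were. The median log2FC was -0.13. *Myrf* (chr19:10208272-10240748, minus strand), the membrane-anchored factor that turns on myelin genes, had 33.6 to 53.5 CPM (median 46.1) in morphine and 57.0 to 67.5 CPM (median 58.9) in saline. The groups did not overlap. Its log2FC was -0.46 ± 0.081 (SE, edgeR adjusted p = 0.0124), and it was a DEG in 23 of the 26 alternatives. In the study's quantitative PCR, *Myrf* showed only a trend to lower RNA in PND14 males given morphine. *Olig1*, *Olig2* and *Sox10*, which mark the whole lineage, had log2FC of -0.05, 0.04 and -0.12 (edgeR adjusted p of 0.906, 0.9 and 0.715). *Tcf7l2*, a Wnt effector of newly formed oligodendrocytes and of thalamus, stood at 0.12 ± 0.13 (SE, adjusted p = 0.846) and took both signs among the alternatives.

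Of 19 genes of precursors and newly formed oligodendrocytes, 2 were lower DEGs and 0 higher, where 0.199% and 0.0815% of all genes were. The median log2FC was -0.11. *Gpr17*, a receptor of cells about to differentiate, had 105.5 to 122.7 CPM (median 116.5) in morphine and 125.0 to 152.7 CPM (median 134.9) in saline, with no overlap and a log2FC of -0.23 (edgeR adjusted p = 0.0366). *Bcas1*, which marks cells that are starting to myelinate, had a log2FC of -0.32 with the same adjusted p. *Enpp6*, another gene of that stage, had a log2FC of -0.42 ± 0.095 (SE) and missed the threshold at an adjusted p of 0.0507, although its groups did not overlap. The precursor genes *Pdgfra* and *Cspg4* had log2FC of 0.02 and 0.01, with standard errors of 0.056 and 0.068, and *Vcan* one of -0.004.

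*Bcas1os1* and *Bcas1os2*, antisense RNAs inside *Bcas1*, were also lower DEGs, with log2FC of -0.37 and -0.43. No source used here states the strand setting of the counting, and their reads and those of *Bcas1* cannot be told apart.

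**Figure D2:**
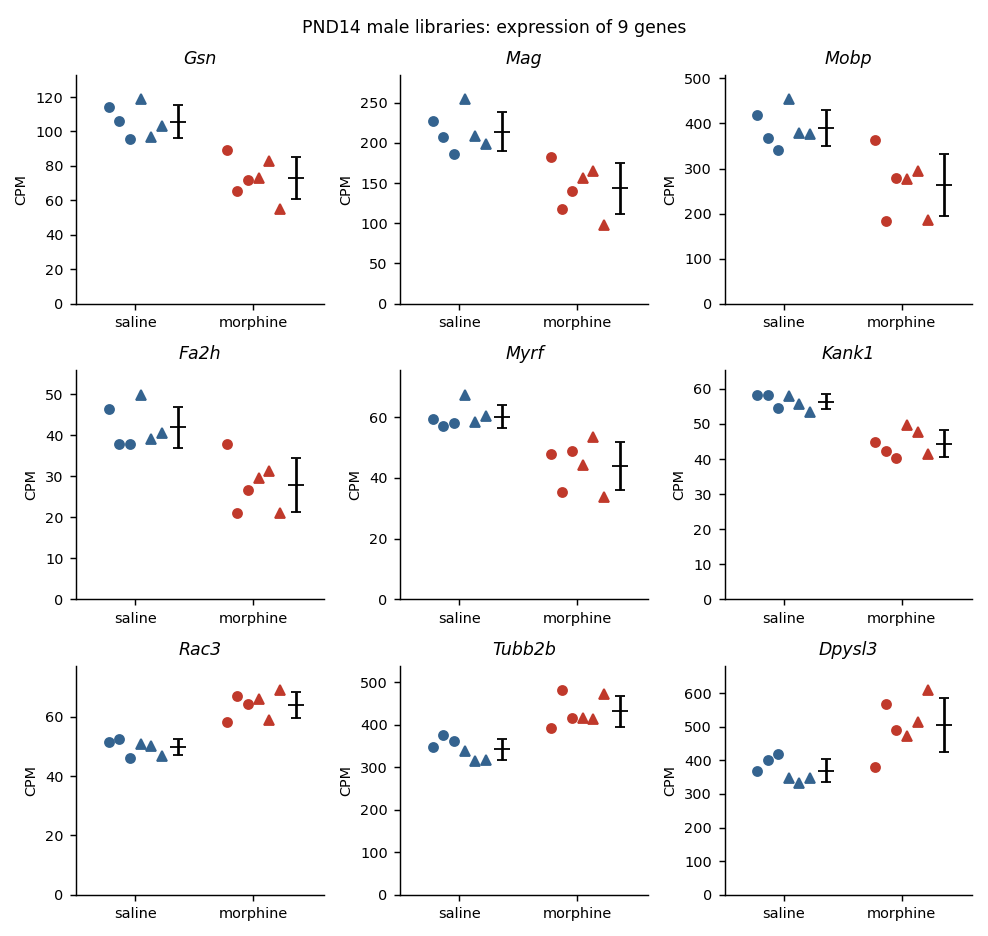
CPM of 9 DEGs in each male library, saline in blue and morphine in red, with circles for ID numbers 4424 and 4422 and triangles for 4425 and 4423. Black marks give the mean and SD over 6 libraries. In *Mag*, *Mobp* and *Fa2h* 2 morphine pups, 1 of each ID number, lie lowest, and *Rac3* and *Tubb2b* are above every saline value in all 6 morphine pups.

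The sum over the 23 myelin sheath genes varied more among morphine pups than among saline pups. It ran from 3335 to 6046 CPM (median 4687) in morphine and from 5495 to 6995 CPM (median 5713) in saline. Morphine replicates 9 and 2, at 3335 and 3496 CPM, came from different ID numbers, and replicate 1, at 6046 CPM, lay inside the saline range. The other 3 lay between 4510 and 5013 CPM, below every saline pup. Among the 39 lower DEGs, the lowest morphine value was in replicate 2 for 15 genes, in replicate 9 for 14 and in replicate 3 for 10, and the highest was in replicate 1 for 25. The coefficient of variation was larger in morphine than in saline for 33 of the 39 (84.6%), where 60.8% of all genes tested had it so. Replicate 1 was the shallowest morphine library (8223937 counts), and saline replicate 7, which held the highest saline value for 21 of the 39, was the shallowest saline library (11224832 counts). The 2 low morphine libraries had 15371182 (replicate 2) and 17011067 counts (replicate 9). Morphine replicate 3, lowest for 10 of the 39, had 9516426 counts. The deepest library, morphine replicate 8 (21404819 counts), held the highest morphine value for 9 of the 39 and the lowest for 0. Saline replicate 3 (12463936 counts) held the lowest saline value for 16 of the 39. The part of depth in these differences was not tested.

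Promoters of 3 DEGs are shown since *Mobp* and *Mag* fell with the myelin group and *Rac3* rose. The sequences are RefSeq's, on GRCm38.p6, from 250 bases before to 50 bases after the start, 5′ to 3′ on the strand of the gene, with capitals for the motif named. They are *Mobp* (chr9:120149492-120149791, plus strand) with CTTTGT, a core of Sox and Tcf/Lef sites, *Mag* (chr7:30914814-30915113, minus strand) with CTGGCAC, a Myrf motif, and *Rac3* (chr11:120721218-120721517, plus strand) with CCGCCC, the reverse complement of the GC box GGGCGG.
Mobp: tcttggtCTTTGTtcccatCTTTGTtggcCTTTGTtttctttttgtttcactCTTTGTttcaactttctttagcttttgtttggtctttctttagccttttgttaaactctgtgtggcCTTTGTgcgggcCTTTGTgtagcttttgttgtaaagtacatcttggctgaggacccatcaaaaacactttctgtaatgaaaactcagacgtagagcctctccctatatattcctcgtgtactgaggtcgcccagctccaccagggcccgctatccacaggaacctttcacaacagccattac
Mag: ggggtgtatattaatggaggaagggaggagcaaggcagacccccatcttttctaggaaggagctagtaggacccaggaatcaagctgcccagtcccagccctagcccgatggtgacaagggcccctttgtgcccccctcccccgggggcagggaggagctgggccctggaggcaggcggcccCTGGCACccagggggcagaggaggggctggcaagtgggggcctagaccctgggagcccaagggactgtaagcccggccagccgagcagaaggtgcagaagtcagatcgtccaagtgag
Rac3: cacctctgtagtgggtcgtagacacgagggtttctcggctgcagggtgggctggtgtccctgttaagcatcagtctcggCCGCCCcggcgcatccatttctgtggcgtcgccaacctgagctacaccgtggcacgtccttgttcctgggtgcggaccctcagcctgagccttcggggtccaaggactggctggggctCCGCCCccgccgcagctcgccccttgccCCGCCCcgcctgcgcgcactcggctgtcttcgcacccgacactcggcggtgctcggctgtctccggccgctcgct

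CTTTGT occurs 6 times in the *Mobp* window, CTGGCAC occurs once in the *Mag* window and GGGCGG 3 times, on the opposite strand, in the *Rac3* window. Promoters were matched for 34 of the 55 DEGs. On either strand, CTGGCAC was present in 4 of 27 lower DEGs (14.8%) and 5.11% of all tested genes with a promoter, and in 1 of 7 higher DEGs. GGGCGG was present in 12 of 27 lower DEGs (44.4%), 5 of 7 higher DEGs (71.4%) and 59.8% of all. CTTTGT, chosen after its copies in *Mobp* were seen, was present in 5 of 27 lower DEGs (18.5%), 3 of 7 higher DEGs (42.9%) and 14% of all. CTTTGA, which differs in its last letter, was present in 2 of 27 (7.41%), 1 of 7 (14.3%) and 12.5%. The Sox letters ACAAT were present in 8 of 27 lower DEGs (29.6%), 0 of 7 higher DEGs and 21.1% of all. The E-box CANNTG was present in 17 of 27 (63%), 4 of 7 (57.1%) and 64.9%. TATAAA was present in 0 of 27 lower DEGs, 0 of 7 higher DEGs and 7.59% of all. The cyclic AMP element TGACGTCA was present in 1 of 27 (3.7%), 0 of 7 and 3.01%. AGAACA, letters bound by the glucocorticoid receptor, was present in 2 of 27 (7.41%), 1 of 7 (14.3%) and 13%. With 27 and 7 promoters, each share rests on few genes and was not tested.

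Beyond myelin, the lower DEGs held genes of axon guidance and of the cytoskeleton. Among 50 axon guidance genes, 3 were lower DEGs and 0 were higher, and at an unadjusted p under 0.05 there were 6 lower and 3 higher, where 5.03% and 4.26% of all genes were. The list had 26 members above 0 and 24 below, and its median log2FC of 0.01 kept its sign in 16 of 26 alternatives. *Sema4d* (chr13:51685529-51793747, minus strand), a transmembrane semaphorin that oligodendrocytes carry, had 103.8 to 133.7 CPM (median 117.9) in morphine and 140.5 to 155.4 CPM (median 145.7) in saline. The groups did not overlap, and the log2FC was -0.31 ± 0.053 (SE, edgeR adjusted p = 0.0119). *Unc5b*, a netrin receptor, had 17.96 to 22.8 CPM (median 21.0) against 23.9 to 29.7 CPM (median 27.3), again with no overlap and a log2FC of -0.39 (adjusted p = 0.0124). *Ephb1*, a receptor of B-type ephrins, was a DEG with a log2FC of -0.26, and its groups overlapped slightly.

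*Kank1* (chr19:25236975-25434496, plus strand), which restrains actin assembly at the cell cortex, had the smallest p of all genes. It lay at 40.3 to 49.8 CPM (median 43.6) in morphine and 53.5 to 58.4 CPM (median 56.8) in saline. Every morphine pup was below every saline pup, with a log2FC of -0.34 ± 0.055 (SE, edgeR adjusted p = 0.0103). *Cobl*, an actin nucleator, had a log2FC of -0.27 ± 0.065 (SE) and did not pass (adjusted p = 0.0763).

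Other lower DEGs with no overlap included *Hr*, a corepressor whose gene responds to thyroid hormone, at 49.1 to 60.0 CPM (median 54.4) against 64.9 to 69.6 CPM (median 68.0), a log2FC of -0.31 (edgeR adjusted p = 0.0103). The other 12 thyroid hormone genes tested held 0 DEGs in edgeR and in DESeq2, 1 of them (*Rxra*) was lower at an unadjusted p under 0.05, and the list's median log2FC was -0.07. *Lgi3*, a secreted protein of the LGI family, ran from 61.7 to 76.1 CPM (median 71.3) against 80.2 to 102.1 CPM (median 89.7), with a log2FC of -0.37. *Etl4* ran from 85.2 to 97.0 CPM (median 93.5) against 103.9 to 120.3 CPM (median 111.7), with a log2FC of -0.27. *Grin2c*, an NMDA receptor subunit, was the DEG among 22 glutamate receptor genes, with a log2FC of -0.31, and its groups overlapped at 1 value each.

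The remaining lower DEGs were *Adamts4* (-0.47), a protease that maturing oligodendrocytes release, *Tppp* (-0.27), a tubulin-binding protein of the same cells, *Plekhh1* (-0.57), *Sgpp2* (-0.41), a sphingosine phosphate phosphatase, *Prima1* (-0.63), the membrane anchor of acetylcholinesterase, *Mcam* (-0.30), a cell adhesion molecule, *Ust* (-0.22), a uronyl sulfotransferase, *Ano3* (-0.28), *Otud7b* (-0.31), a deubiquitinase, *Oxr1* (-0.20), an oxidative stress protein, *Aifm3* (-0.27), *Zfp612* (-0.25), *Specc1* (-0.22), *Ogfod1* (-0.22) and the long noncoding *1700047M11Rik* (-0.66), each given as its log2FC. In all, 19 of the 39 lower DEGs and 3 of the 16 higher DEGs were members of the 20 gene lists examined.

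Of 25 growth cone and tubulin genes, 2 were higher DEGs and 0 lower, and 22 had a log2FC above 0 with a median of 0.16. At an unadjusted p under 0.05, 16 were higher and 2 lower, where 4.26% and 5.03% of all genes were. DESeq2 called 7 of the 25 as higher, and leaving out a library or ID number left 0 to 3 in edgeR.

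*Tubb2b*, a beta tubulin of migrating and growing neurons, had 392.8 to 481.8 CPM (median 415.7) in morphine and 313.8 to 376.0 CPM (median 342.6) in saline. Its groups did not overlap, and its log2FC was 0.34 ± 0.063 (SE, edgeR adjusted p = 0.0183). *Dpysl3*, a collapsin response mediator, had 379.9 to 608.9 CPM (median 501.2) in morphine and 332.0 to 418.6 CPM (median 358.7) in saline. Morphine replicate 1 lay inside the saline range, and the log2FC was 0.45 ± 0.089 (SE, edgeR adjusted p = 0.0246). *Gap43*, a protein of the growth cone membrane, had a log2FC of 0.22 ± 0.053 (SE) with no overlap and did not pass (adjusted p = 0.0728). The 2 members lower at an unadjusted p under 0.05 were *Map1a* and *Tubb4a*, a microtubule protein of mature neurons and a tubulin rich in oligodendrocytes, with log2FC of -0.17 and -0.13.

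*Rac3* (chr11:120721470-120723969, plus strand), a small GTPase of developing neurons, had the smallest p of the higher DEGs. It lay at 58.2 to 69.0 CPM (median 65.3) in morphine and 46.1 to 52.7 CPM (median 50.6) in saline. Every morphine pup was above every saline pup, with a log2FC of 0.37 ± 0.065 (SE, edgeR adjusted p = 0.0124). It was a DEG in 19 of the 26 alternatives.

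*Cd24a*, a surface glycoprotein of young neurons, ran from 69.1 to 98.2 CPM (median 79.2) against 55.8 to 68.5 CPM (median 60.6), with a log2FC of 0.37. *Lpl*, lipoprotein lipase, ran from 57.1 to 68.3 CPM (median 64.4) against 46.8 to 54.9 CPM (median 51.8), with a log2FC of 0.33. *Samd14* ran from 126.8 to 167.7 CPM (median 142.7) against 107.9 to 126.8 CPM (median 117.7), with a log2FC of 0.29. All 3 were higher in each morphine pup than in any saline pup, by a narrow margin in *Cd24a* and *Samd14*. *Arxes1* had a log2FC of 0.30, but the nearly identical *Arxes2* may share its reads, so its value is uncertain.

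The other higher DEGs were *Btg3* (log2FC 0.31), an antiproliferative factor, *Cgref1* (0.27), *Dok4* (0.25), a docking protein of receptor kinases, *Inpp5f* (0.25), a phosphoinositide phosphatase, *Ablim3* (0.32), an actin-binding LIM protein, *Bdh1* (0.16), which interconverts ketone bodies, *Sox12* (0.28), a SoxC factor of neuronal progenitors, *Sla* (0.34), a Src-like adaptor, and the long noncoding *Gm48283* (0.29).

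**Figure D3:**
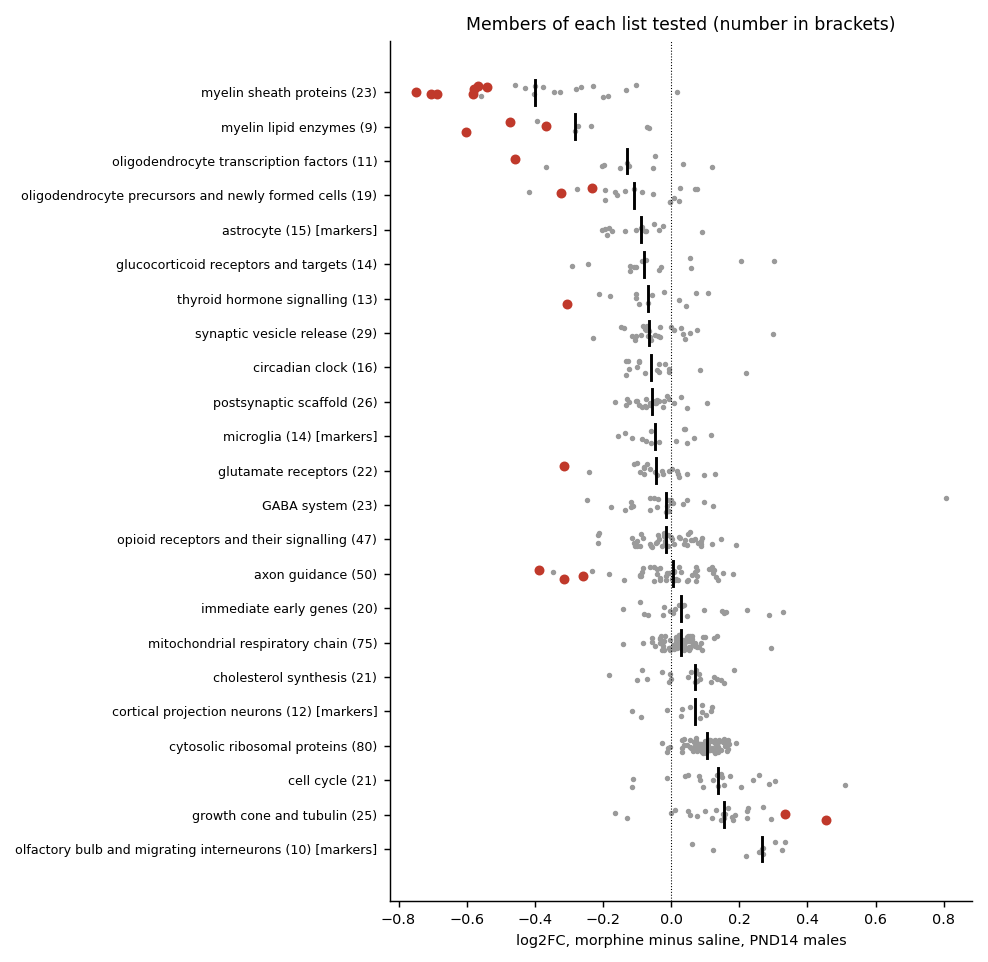
Log2FC in PND14 males of each tested member of 19 gene lists and 4 marker lists, with the number tested in brackets. Red points are DEGs, grey points are not, and the black bar is the list median, from -0.40 for myelin sheath proteins to 0.27 for markers of olfactory bulb and migrating interneurons.

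Lists outside these groups held few DEGs. Among 47 genes of opioid receptors and their signalling, 0 were DEGs in edgeR and 1 in DESeq2. At an unadjusted p under 0.05, 3 were higher and 1 lower, where 4.26% and 5.03% of all genes were. The list's median log2FC of -0.02 kept its sign in 22 of 26 alternatives. *Oprm1*, the mu receptor, lay at 67.9 to 73.1 CPM (median 69.9) in morphine and 65.3 to 75.2 CPM (median 71.2) in saline, a log2FC of -0.02 ± 0.051 (SE, edgeR adjusted p = 0.962). Its morphine values fell inside the saline range. *Gnaz*, a G protein alpha subunit that opioid receptors use, had the smallest p of the list, with a log2FC of 0.15 ± 0.043 (SE, adjusted p = 0.162) and no overlap between groups.

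Synaptic vesicle release (29 genes), postsynaptic scaffold (26), immediate early genes (20), circadian clock (16), the cell cycle (21) and the mitochondrial respiratory chain (75) had 0 DEGs in edgeR and 0 in DESeq2. At an unadjusted p under 0.05 these lists had 0, 0, 1, 1, 4 and 0 members higher and 3, 2, 0, 3, 0 and 0 lower. Over all genes, 4.26% were higher and 5.03% lower. Members with a log2FC above 0 numbered 7, 4, 13, 2, 18 and 56, and those below 0 numbered 22, 22, 7, 14, 3 and 19. Over all genes, 51.3% were above 0 and 48.7% below. The list medians of log2FC were -0.07, -0.06, 0.03, -0.06, 0.14 and 0.03. The GABA system (23) had 0 DEGs in edgeR and 1 in DESeq2, with 1 member higher and 4 lower at an unadjusted p under 0.05. Its enzyme *Gad2*, which makes GABA, had a log2FC of -0.001 ± 0.047 (SE, adjusted p = 1). Glucocorticoid receptors and targets (14) had 0 DEGs in edgeR and 2 in DESeq2, with 1 higher and 3 lower at an unadjusted p under 0.05. Cytosolic ribosomal proteins had 0 DEGs among 80 in edgeR and 1 in DESeq2, yet 76 of the 80 had a log2FC above 0 (median 0.10) and 19 were higher at an unadjusted p under 0.05, where 51.3% and 4.26% of all genes were. Many of these genes have near-identical pseudogene copies, and their reads may be split.

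Marker lists of other cells and regions had 0 DEGs in edgeR, and DESeq2 called 1, a thalamus marker. Of 15 astrocyte markers 14 had a log2FC below 0 (median -0.09) and 5 were lower at an unadjusted p under 0.05, where 48.7% and 5.03% of all genes were. Their summed level was 4358 to 5154 CPM (median 4732) in morphine and 5009 to 5540 CPM (median 5208) in saline. Morphine replicate 1 (5154 CPM) lay inside the saline range, and the other morphine pups, at 4358 to 4952 CPM, lay below every saline pup. Microglia markers had a median log2FC of -0.05, endothelium -0.04, cortical projection neurons 0.07, striatum 0.04, thalamus -0.02, hypothalamus 0.12 and cerebellum -0.25. Of 10 markers of olfactory bulb and migrating interneurons, which share *Dcx* with the growth cone list, all had a log2FC above 0 (median 0.27), and 5 were higher at an unadjusted p under 0.05. They summed to 333.6 to 448.6 CPM (median 405.7) in morphine and 280.5 to 409.8 CPM (median 338.5) in saline, and the groups overlapped. Choroid plexus markers (12) had a median log2FC of -0.24, with sums of 202 to 404.9 CPM in morphine and 231.7 to 340.6 CPM in saline, and erythroid markers (5) one of -0.50, with sums of 10.1 to 76.0 and 19.9 to 83.2 CPM. Markers of mural cells and meninges had a median log2FC of -0.01, but their sum was 968.5 CPM in morphine replicate 2 and 382.4 to 583.9 CPM in the other 11 libraries. *Col1a1*, a collagen of the meninges, had a log2FC of 1.01, with 342 CPM in replicate 2 and a morphine median of 48.9 CPM. Replicate 2 also had the lowest endothelium sum (347.2 CPM) and the lowest choroid plexus sum (202 CPM). Without it there were 0 DEGs in edgeR and 1574 genes at an unadjusted p under 0.05, while the median log2FC of the myelin sheath list was -0.34 and that of growth cone and tubulin genes 0.14. The part of these cell types in the DEGs was not tested.

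The 12 female libraries of the same age, 6 per drug, carried the same 4 ID numbers as the males. In females 0 genes were DEGs in edgeR (2054, or 10.5%, at an unadjusted p under 0.05) and 28 in DESeq2. Of the 55 male DEGs, 54 had the same sign in females, where 63.9% of all genes did. *Aifm3* was the exception (log2FC 0.005 in females). With the same sign, 27 of the 55 also had an unadjusted p under 0.05 in females, as did 1625 of all 19636 genes. The median log2FC of the 39 lower DEGs was -0.37 in males and -0.14 in females, and that of the 16 higher DEGs 0.30 in males and 0.13 in females. All 55 were smaller in females, but the genes were chosen by their male values. The male minus female difference passed the test for 0 of 19636 genes in edgeR (676, or 3.44%, at an unadjusted p under 0.05) and for 0 in DESeq2.

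*Rac3* had a log2FC of 0.30 in females against 0.37 in males, and *Sox12* and *Arxes1* of 0.27 each, close to their male values. *Opalin* had -0.03 ± 0.16 (SE) in females against -0.75 ± 0.16 in males, a difference of -0.72 ± 0.23 (SE) that did not pass over all genes (edgeR unadjusted p = 0.00354, adjusted p = 1). Myelin sheath proteins as a group had a median log2FC of -0.17 in females, with 21 of 23 below 0, and growth cone and tubulin genes one of 0.12, with 20 of 25 above 0. Oligodendrocyte transcription factors stood at 0.001 in females and -0.13 in males. The interneuron markers had 9 of 10 below 0 in females (median -0.23). Cerebellum markers stood at -0.25 in males and 0.70 in females, with 12 of 12 above 0 in females, and immediate early genes at 0.03 and -0.21, with 18 of 20 below 0 in females. These differences between the sexes in list medians were not tested. Of all genes, *Dlx2*, a homeobox factor of those interneurons, had the smallest p for the sex difference, with log2FC of 0.33 in males and -0.40 in females (edgeR unadjusted p = 6.14e-05, adjusted p = 1).

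**Figure D4:**
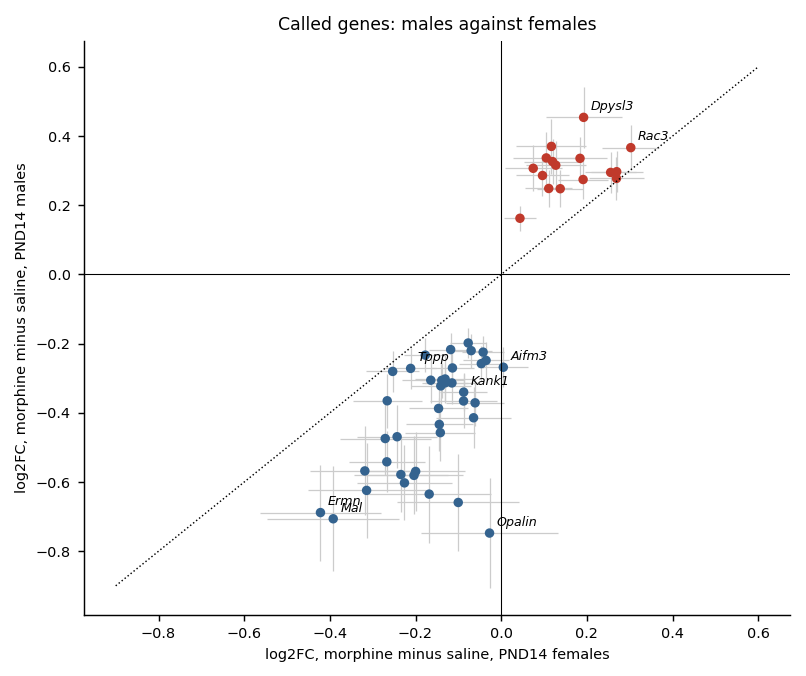
Log2FC of the 55 male DEGs in PND14 females (x axis) and males (y axis), lower genes in blue and higher genes in red, with SE bars and a dotted line of equal values. All points but *Aifm3* lie in the quadrants of equal sign, and each is farther from 0 in males than in females.

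To place the DEGs on the course of development, their change with age was read in libraries labelled female saline, none of which is in the male comparison: 6 at PND14 against 7 at PND1. The PND1 libraries belong to another window, so age, handling and sequencing cannot be told apart. PND1 replicate 5 went against its female label, with 10.3 CPM of *Xist* and 50.7 CPM of *Ddx3y*, where the other 6 had 427.5 to 461.6 and 0 to 1.86 CPM. Of the 39 genes lower with morphine, 38 were higher at PND14 than at PND1, where 51.8% of all genes were, and their median log2FC with age was 2.65. Of the 16 genes higher with morphine, 13 were lower at PND14, where 48.2% of all genes were, with a median of -1.21. Over all genes the median was 0.04. Without replicate 5 the counts were again 38 of 39 and 13 of 16, with medians of 2.67 and -1.21.

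*Mobp* rose by a log2FC of 9.402 between the ages, *Opalin* by 7.80, *Mag* by 5.81, *Fa2h* by 5.79 and *Myrf* by 3.77. Beside these age differences the morphine differences of the same genes, from -0.75 to -0.46, were smaller in size. *Kank1* (1.87), *Sema4d* (1.39) and *Unc5b* (0.96) also rose with age. On the other side *Cd24a* (-2.63), *Dpysl3* (-2.18), *Tubb2b* (-1.88), *Sox12* (-1.86) and *Rac3* (-1.53) were lower at PND14. The exceptions were *Ephb1* among the lower genes (log2FC -0.38 with age) and *Lpl* (0.90), *Bdh1* (0.44) and *Arxes1* (0.12) among the higher ones. The age difference did not pass for *Arxes1* (edgeR adjusted p = 0.0937) or *Cgref1* (adjusted p = 0.333).

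**Figure D5:**
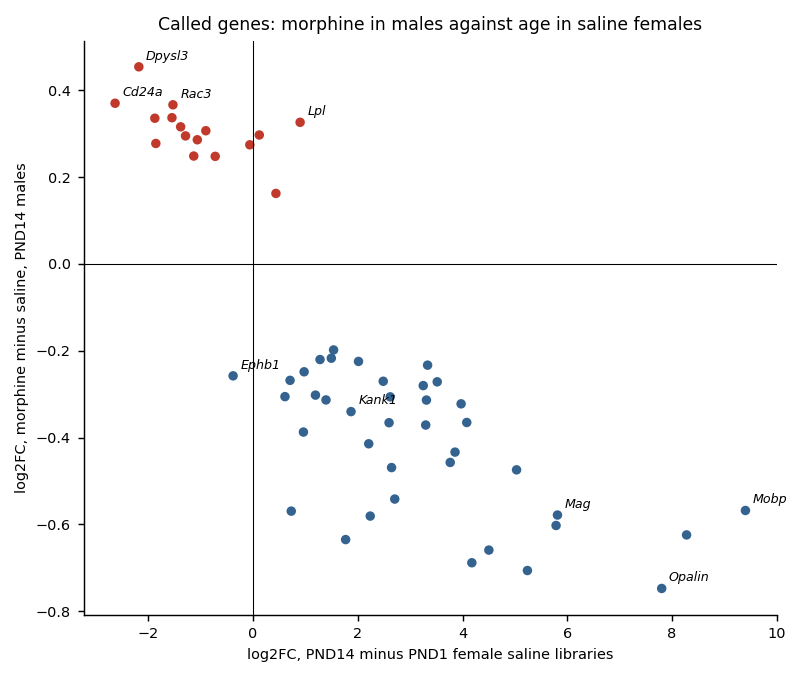
Log2FC with morphine in PND14 males (y axis) against log2FC with age, PND14 minus PND1, in female saline libraries (x axis) for the 55 DEGs, lower genes in blue and higher genes in red. The lower genes lie right of 0 apart from *Ephb1*, and 13 of the 16 higher genes lie left of 0.

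The males were also compared by ID number. Across genes, deviations from the group mean had a mean Pearson r of -0.17 between libraries that share a number (12 pairs) and -0.21 between libraries of the same drug with different numbers (18 pairs), both over genes, which are not independent. Centring on the mean of 6 libraries alone gives -0.2. The median deviation of the myelin sheath list from its mean over both groups was 0.09 to 0.45 in the 6 saline pups and -0.60 to 0.08 in the 6 morphine pups, on the log2 scale, with replicate 1 of ID number 4422 the morphine pup above 0. Since each number occurs under 1 drug, a difference between numbers and the difference between drugs cannot be told apart.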

How the data were processed

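The raw counts per gene and library were deposited by the authors, who trimmed paired-end reads (Trim Galore 0.6.6 in the submitters' processing notes), aligned them with HISAT2 2.2.1 to mm10, removed duplicates and counted them with featureCounts 2.0.1 on GENCODE M25. Removal of duplicates and the unstated strand setting act on abundant and on overlapping genes. 0 columns and 0 rows of the table were left without a sample or gene. The authors' own DESeq2 tables, which hold mean counts, log2 fold changes and p-values of their comparisons, were not used.

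Counts were tested in R 4.3.3 with edgeR 4.0.16 (TMM, filterByExpr at a minimum count of 10 and minimum total of 15, glmQLFTest) over the 24 PND14 libraries in 4 groups of sex and drug, with contrasts for males, females and their difference. Adjusted p-values are Benjamini-Hochberg over 19636 genes. CPM values are TMM-normalized. Age differences came from a fit of the 13 female saline libraries. DESeq2 1.42.0 and limma 3.58.1 gave alternatives, and Python 3.11.15 with matplotlib 3.10.9 the plots. GENCODE M21 (mm10) named 55141 of 55401 gene IDs and gave the coordinates. The steps were tested on simulated counts. No 2 replicates agreed within sampling noise (lowest chi-square per gene 1.64).

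Genes named with values were up to 10 higher and 10 lower protein-coding DEGs of smallest p, other DEGs by log2FC, up to 3 of each list, genes the study names, *Oprm1* and those leading the sex difference; further list members were named after their values were seen. The comparison, lists and motifs were chosen with earlier results of these data known. Alternatives were DESeq2's size factors, no filter, DESeq2, the 12 males alone, 23 libraries (without the shallowest female), a replicate block, a GC and length correction (lowess, span 0.3), both together, the ID number as a random effect or summed, and each library or ID number left out, and for the age difference, chosen after seeing the data, PND1 female saline replicate 5 left out. Some genes and 1 of the 20 gene lists are not reported here.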

Additional observations from a re-analysis of the deposited data

Results flagged for a closer look

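In 28 of the genes, each of the 2 male groups was examined for a library far from the other 5 by Dixon's ratio at the 95% level, and 4 of 56 groups had one, where chance gives about 1 in 20. *Arxes1* had 52.9 CPM in male morphine replicate 1, with the others at 41.0 to 45.4 CPM. *Myrf* had 67.5 CPM in male saline replicate 7, with the others at 57.0 to 60.6 CPM. *Ugt8a* had 152 CPM in the same library, with the others at 124 to 131.3 CPM. *Opalin* had 6.90 CPM in male saline replicate 3, with the others at 8.95 to 10.0 CPM.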

How the results depend on the processing

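The count of 55 DEGs in males became 57 with DESeq2's size factors, 53 without the filter, 76 with 23 libraries and 196 with DESeq2. It was 124 with the 12 males alone, 85 with the GC and length correction and 24 with counts summed over ID number and sex. With limma and the ID number as a random effect it was 101. The correlation within a number that limma fitted there was -0.022, so that fit made no allowance for likeness among pups of a number. With a replicate block the count was 31, and 51 with the block and the correction. The shared replicate numbers were not treated as pairs, since deviations of same-numbered morphine and saline libraries correlated at -0.11 to 0.12 and 0 of 6 matched their own number best. Leaving out 1 library or ID number gave 0 to 120. The male minus female count stayed at 0 except without male saline replicate 3, where it was 1 (range 0 to 1). The medians of the myelin sheath (-0.49 to -0.33), myelin lipid (-0.36 to -0.24) and growth cone lists (0.10 to 0.21) kept their sign in all 26 alternatives, while those of axon guidance (16), opioid signalling (22), immediate early genes (23) and the respiratory chain (24) kept it in the number given. In the 3 alternatives run, 1 of them (without PND1 female saline replicate 5) chosen after seeing the data, 38 of 39 lower genes were higher at PND14. Log2FC signs turned for *Gad2* without the filter (0.00115), with the correction (0.0089) and with block and correction (0.00911), and over left-out libraries it ran from -0.0531 to 0.0487. *Oprm1* turned with the correction (0.00917) and with block and correction (0.00923) and ran from -0.0456 to 0.00906. *Tcf7l2* ran from -0.0495 to 0.288 and *Sox2* from -0.00243 to 0.0868. None of these 4 was a DEG. Depth limits low genes most, and the precision is that of 6 pups a group.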
